A study of Mus musculus with 2 samples.

Results

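The 4 mouse genes Mir199a-1, Mir199a-2, Mir199b and Mir214 encode the precursors of miR-199a, miR-199b and miR-214. They were found by gene symbol in the GENCODE M21 annotation and are 4 of the 2202 annotated miRNA genes counted. All 4 were present in both tables. Small RNA had been sequenced in 2 libraries from adrenal glands of female B6CASTF1/J mice, 25 days old with no treatment named in the labels. These animals are first-generation hybrids that carry 1 chromosome set of the wild-derived CAST strain. The assay was microRNA-seq of total RNA with a stated size range under 30 nucleotides. The labels give 1 group of 2 biological replicates and no contrast, so the values below describe the level of each gene and its difference between library 2 and library 1. The glands carry the numbers of separate animals but 1 common donor identifier, so the labels do not settle whether the animals were separate. Animal, dissection and sequencing cannot be told apart in the spread. Fewer cells of a type and less RNA per cell cannot be told apart in whole glands either.

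A miRNA gene is transcribed as a hairpin, and each arm of the hairpin (5p and 3p) can yield a mature miRNA of about 22 bases that pairs with messenger RNAs through its seed, bases 2 to 8. The miR-199 and miR-214 genes are known for expression in mesenchymal cells such as fibroblasts and pericytes. In mouse embryos the factor Twist1 drives Dnm3os, the long noncoding RNA that carries Mir199a-2 and Mir214, and mice without Dnm3os have skeletal and growth defects. In human lung fibroblasts, miR-199a-5p represses CAV1, the caveolin gene. In the adrenal gland, fibroblasts form the capsule around the steroid-producing cortex, and pericytes lie around its dense capillaries. The tables hold no cell types, so the cells that carried these miRNAs could not be read from them.

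The mature arms are shown first because their identity sets what the counts can hold. They are taken from RefSeq (GRCm38.p6), written 5′ to 3′, with the seed in capitals.
mmu-miR-214-5p: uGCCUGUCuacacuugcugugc
mmu-miR-214-3p: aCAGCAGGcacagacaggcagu
mmu-miR-199a-5p: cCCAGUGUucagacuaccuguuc
mmu-miR-199a-3p and mmu-miR-199b-3p: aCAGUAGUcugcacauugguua
The 3p arm was the same in Mir199a-1, Mir199a-2 and Mir199b, and the miR-199a-5p arm was the same in Mir199a-1 and Mir199a-2. Both miR-214 arms occurred in no other miRNA gene. Among all annotated transcripts, the arms of Mir214 and Mir199a-2 lay in these genes, their Mir199 copies and Dnm3os, and nowhere else on either strand. The best ungapped match of miR-199a-5p in Mir199b (chr2:32318485-32318507, plus strand) differed at 1 base, C10U, counted from the 5′ end of miR-199a-5p. It is shown with that base in capitals.
Mir199b 5p stretch: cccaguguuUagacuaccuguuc
Its seed was that of miR-199a-5p, and no other miRNA gene held this stretch. The seeds of miR-199 3p and miR-214-3p differed by 2 substitutions in the first 8 bases, U5C and U8G, with positions counted from the 5′ end of miR-199a-3p. In the RefSeq list only mmu-miR-761 shared the seed of miR-214-3p, and its gene Mir761 had 0 reads in library 2 and 0 in library 1.

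The hairpins of the 3 Mir199 genes show how far the identity runs beyond the arms. Capitals mark bases inside a stretch of 20 or more bases that another annotated miRNA gene also holds.
Mir199a-1: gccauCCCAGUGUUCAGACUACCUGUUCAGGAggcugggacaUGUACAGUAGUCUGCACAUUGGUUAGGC
Mir199a-2: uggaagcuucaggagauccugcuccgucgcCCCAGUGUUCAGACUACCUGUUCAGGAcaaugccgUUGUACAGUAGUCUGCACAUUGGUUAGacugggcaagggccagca
Mir199b: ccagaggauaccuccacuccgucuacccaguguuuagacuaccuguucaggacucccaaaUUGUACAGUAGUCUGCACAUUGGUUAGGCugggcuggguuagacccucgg
In Mir199a-1, 55 of 70 bases lay in such stretches, in Mir199a-2 54 of 110 and in Mir199b 29 of 110. Mir214, also 110 bases long, had none. A read of miR-199a-5p from Mir199a-2 needs 1 further base at its 5′ end, or 5 at its 3′ end, before its sequence differs from that of Mir199a-1. A 3p read of Mir199a-2 needs 2 further bases at its 3′ end. A 3p read of Mir199b needs 5 at its 5′ end, or 4 at its 3′ end, which run past the annotated end of Mir199a-1. A 3p read of Mir199a-1 needs 4 at its 5′ end, and at its 3′ end the hairpin stops before the sequences part. Reads mapped to several places, 27.5% of all reads in library 2 and 28.4% in library 1, are in no gene count. The counts of the 3 Mir199 genes therefore leave out reads that match more than 1 of them, and how many reads that was is not analysed here. The arms of Mir214 have no such copy among the annotated transcripts. Genomic sequence outside annotated transcripts was not searched for the arms.

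**Figure D1:**
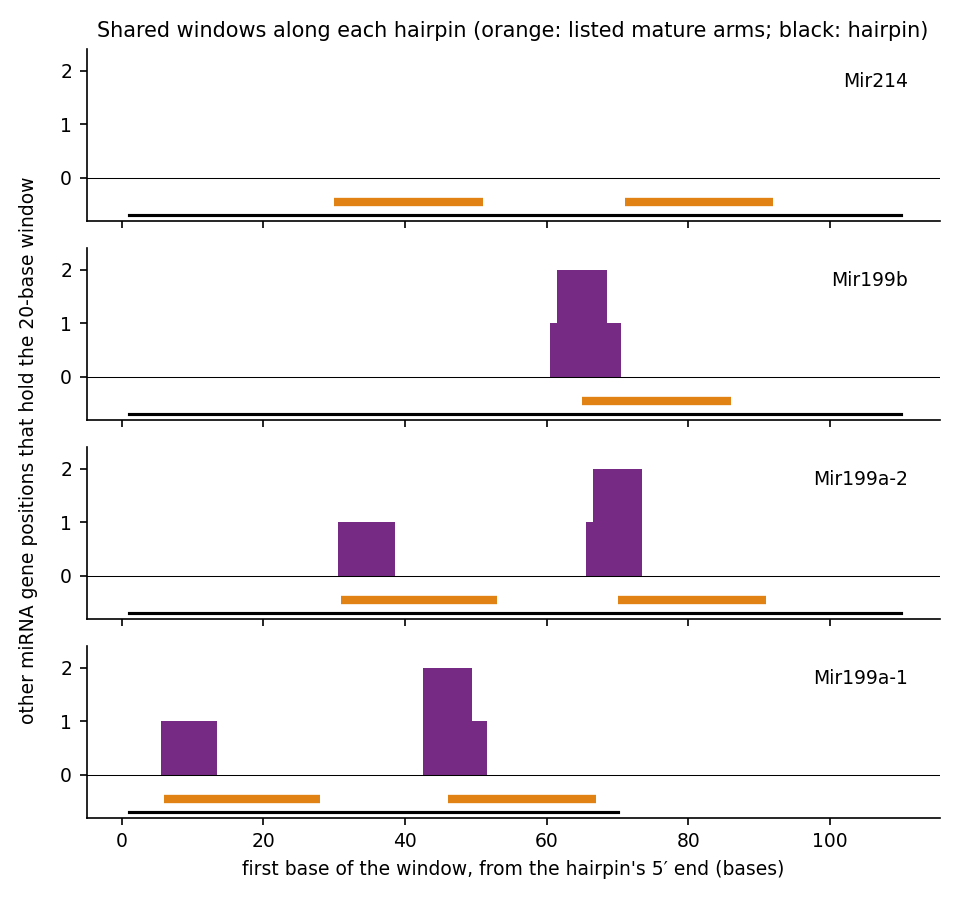
Each panel runs along 1 hairpin from its 5′ end (x axis, first base of a 20-base window), and bars give the number of other miRNA gene positions that hold the window. Orange lines are the mature arms listed in RefSeq and the black line is the hairpin. Mir214 has no shared window of 91, while Mir199a-1 has 17 of 51, Mir199a-2 16 of 91 and Mir199b 10 of 91.

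All 4 genes lie antisense inside a gene of the dynamin family, which encodes GTPases that pinch vesicles off membranes. In mm10 coordinates, Mir199a-2 (ENSMUSG00000070126.1) spans chr1:162217814-162217923 and Mir214 (ENSMUSG00000065516.1) spans chr1:162223368-162223477, both on the plus strand and 5444 bases apart. Both overlap exons of Dnm3os in each Dnm3os transcript that spans them, 3 for Mir199a-2 and 2 for Mir214. On the other strand both lie in introns of all 4 spanning transcripts of Dnm3. Mir199b (ENSMUSG00000092807.1) spans chr2:32318460-32318569 on the plus strand and lies in introns of all 10 spanning transcripts of Dnm1. Mir199a-1 (ENSMUSG00000065547.1) spans chr9:21496495-21496564 on the minus strand and lies in introns of all 10 spanning transcripts of Dnm2. No other annotated miRNA gene overlaps any of the 4.

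Mir214 was by far the most counted of the 4 genes. It had 1756 reads in library 2 and 1752 reads in library 1. Scaled to a library's miRNA reads on the annotated gene strand (CPM), this was 449 CPM in library 2, with an exact 95% interval from 428 to 470, and 781 CPM in library 1, with an interval from 745 to 818. The mean was 615 ± 235 CPM (SD, n = 2), rank 103 of 2202 genes. The intervals of the 2 libraries do not overlap. Each comes from 1 library, so it covers counting error only. PCR copies of 1 molecule are counted as separate reads without molecular identifiers, so the intervals may be too narrow even for counting error. Reads under 30 nucleotides were assumed to span a mature miRNA whole, so CPM of different miRNA genes were compared without division by gene length. The counts hold no read lengths with which to check this. The tables do not separate the 5p arm from the 3p arm.

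Mir199b, the copy in Dnm1, came next. It had 144 reads in library 2 and 28 reads in library 1. Its level was 36.8 CPM in library 2 (interval 31.0 to 43.3) and 12.5 CPM in library 1 (interval 8.29 to 18.0), with a mean of 24.6 ± 17.2 CPM (SD, n = 2), rank 256. Library 2 was the higher of the pair, the reverse of Mir214.

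Mir199a-2, the neighbour of Mir214 in Dnm3os, had 25 reads in library 2 and 16 reads in library 1. Its level was 6.39 CPM in library 2 (interval 4.14 to 9.43) and 7.13 CPM in library 1 (interval 4.08 to 11.6), with a mean of 6.76 ± 0.523 CPM (SD, n = 2), rank 319. The intervals overlap, and the libraries lay close together. Mir199a-1, the copy in Dnm2, had 1 read in library 2 and 0 reads in library 1. A count of 0 allows up to 3 reads, or 1.34 CPM in library 1, so it does not give a level of 0. Both arms of Mir199a-1 also occur in other Mir199 genes, and reads that match more than 1 of these genes are in no count.

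**Figure D2:**
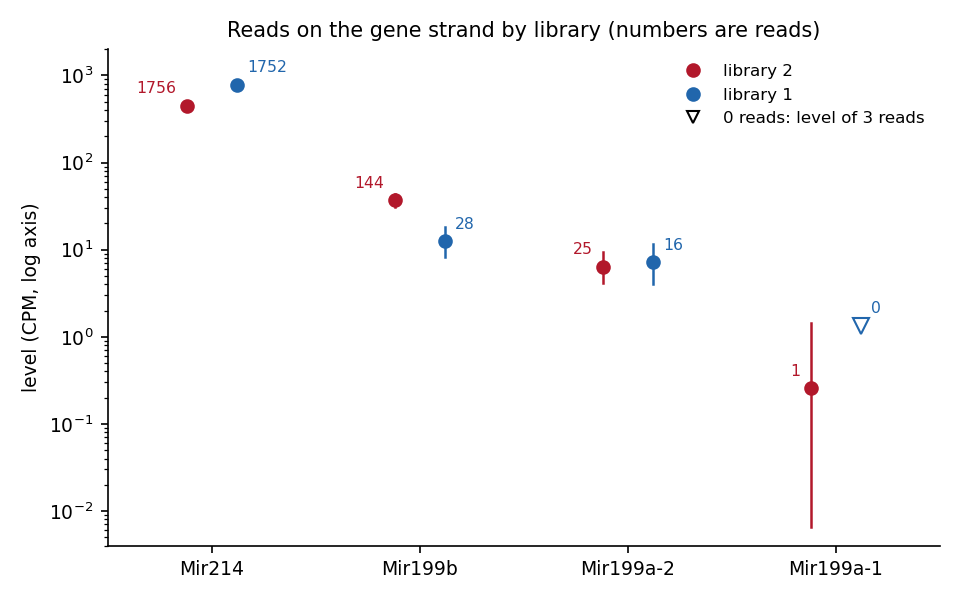
Level of each gene (y axis, CPM on a log axis) in library 2 (red) and library 1 (blue), with exact 95% intervals for counting error as lines and read counts as numbers. The open triangle stands for 0 reads, drawn at the level of 3 reads. The order of uniquely placed reads from Mir214 to Mir199a-1 is the same in both libraries.

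The order Mir214, Mir199b, Mir199a-2 and Mir199a-1 held in both libraries. The step from Mir199b to Mir199a-2 was clear in library 2, whereas in library 1 the intervals of these genes overlap. For each Mir199a-2 read there were 70.2 Mir214 reads in library 2 and 109.5 in library 1, although both genes lie in Dnm3os. Mir199b had 8.20 reads per 100 Mir214 reads in library 2 and 1.60 in library 1. Mir214 took 91.2% of the reads of the 4 genes in library 2 (Wilson 95% interval 89.8 to 92.4) and 97.6% in library 1 (interval 96.7 to 98.2). Because Mir199 reads that fit several copies are left out, these values compare uniquely placed reads and not the amounts of miR-199 and miR-214. The 5p stretch of Mir199b occurs in no other miRNA gene, whereas both arms of Mir199a-1 and Mir199a-2 are shared. The reads left out can thus differ between the Mir199 genes, and their expression cannot be ranked from this order.

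Together the 4 genes held 0.0492% of the uniquely placed miRNA reads in library 2 (Wilson 95% interval 0.0471 to 0.0515). The share in library 1 was 0.0800% (interval 0.0764 to 0.0838). Reads that fit several Mir199 genes are left out of these shares, so they are not the shares of miR-199 and miR-214. With at least 10 reads in each library, Mir214, Mir199b and Mir199a-2 were detected, among 337 detected genes in all whose median level was 156 CPM. Mir214 was above that median, and Mir199b and Mir199a-2 were below it by their uniquely placed reads. Directly above Mir214 by mean level stood Mir497, with 642 ± 26.5 CPM, and Mir101b, with 635 ± 132 CPM (SD, n = 2). Directly below it stood Mir137, with 608 ± 264 CPM, and Mir148a, with 587 ± 45.4 CPM (SD, n = 2). The values of Mir214 overlapped the range of each of these 4 genes, so its place among them is not resolved. The neighbours of Mir199b were Mir103-2, Mir293, Mir383 and Mir8114, from 25.9 down to 23.5 CPM. Those of Mir199a-2 were Mir3097, Mir1947, Mir547 and Mir3058, from 7.40 down to 6.76 CPM. Each range overlapped that of the Mir199 gene it stood beside.

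**Figure D3:**
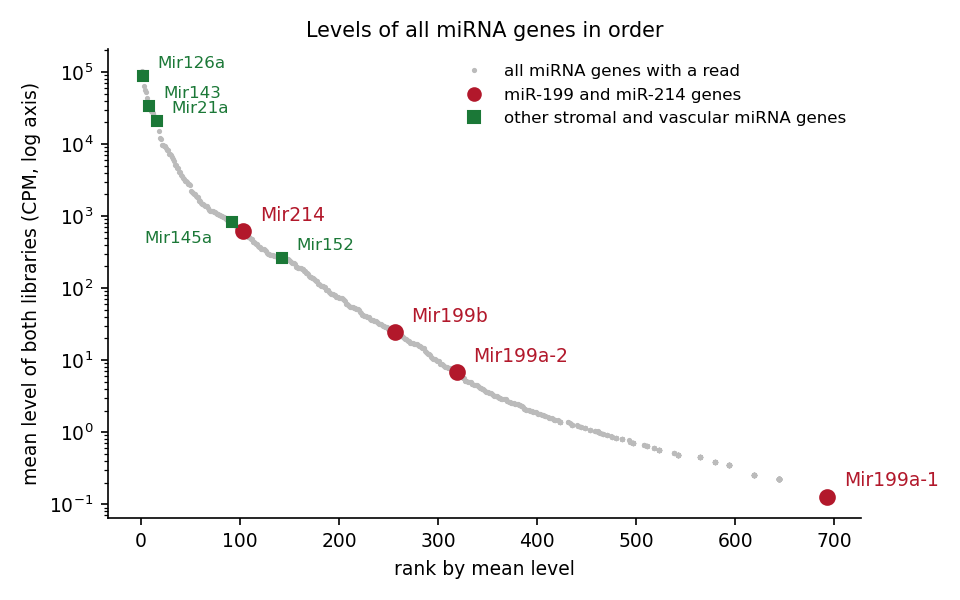
Mean level of both libraries (y axis, CPM on a log axis) against rank (x axis) for all miRNA genes with a read in grey, the 4 genes in red and 5 stromal or vascular miRNA genes in green. Mir214 at rank 103 stands near Mir145a at rank 92, and the Mir199 genes follow at ranks 256, 319 and 693.

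Genes with copied arms were set beside genes without them, as a description with no test. Sequences were matched for 968 of the 2202 genes. Of 44 genes whose listed arms all occur in another miRNA gene, 5 were detected (11.4%), against 245 of 851 genes whose arms are all unique (28.8%). Mir199b and Mir199a-2 were 2 of those 5. The others were Mirlet7c-2, Mirlet7a-1 and Mir129-1, named after their values were seen. Mir199b entered through its 3p arm alone, because its 5p stretch is not listed as an arm. No other miRNA gene held that stretch, so Mir199b would not be in this class if it were listed. The median level of the detected genes with unique arms was 182 CPM. With shared arms it was 24.6 CPM, which is the level of Mir199b itself, the middle of 5 genes that reached 1212 CPM. Genes with copied arms also belong to other families and tissues than unique ones, so the contrast does not measure the loss of reads.

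The difference between the libraries was then tested for each miRNA gene with an exact binomial test on its reads, which compares these 2 libraries and not conditions. It was adjusted by Benjamini and Hochberg over the 411 genes with 10 or more reads in sum. Of the 4 genes 3 entered the test, and Mir199a-1 did not. At an adjusted p under 0.05, 2 of the 3 were called, 1 in each direction. Over all tested genes 58.4% were called, with 29.4% higher in library 2 and 29% higher in library 1, a split that moved with the scaling (103 and 137 genes by library size alone). When a difference of at least 1.5-fold was required too, Mir214 and Mir199b were both called, against 31.4% of all tested genes. Calls were thus common in the whole table, and the count for the 3 genes is no result about them.

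Mir214 was lower in library 2, with a log2 ratio of library 2 over library 1 of -0.71 (95% counting interval -0.81 to -0.62, exact binomial test, adjusted p = 3.92e-47). This was a 1.64-fold difference, which ranked 101 by size among the 337 detected genes. With no filter on low counts its log2 ratio was -0.55, which is under 1.5-fold. Mir199b was higher in library 2, with a log2 ratio of 1.63 (interval 1.05 to 2.21, exact binomial test, adjusted p = 2.36e-09). This was a 3.09-fold difference, which ranked 12 by size among the same genes. Mir199a-2 had a log2 ratio of -0.09 (interval -0.98 to 0.81, exact binomial test, adjusted p = 0.92), so at 25 and 16 reads differences within that interval could not be told from counting error. Its sign turned with no filter on low counts, where the log2 ratio was 0.08. The difference between the ratios of Mir214 and Mir199b was not itself tested. With 1 library on each side, these differences have no replicate check.

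**Figure D4:**
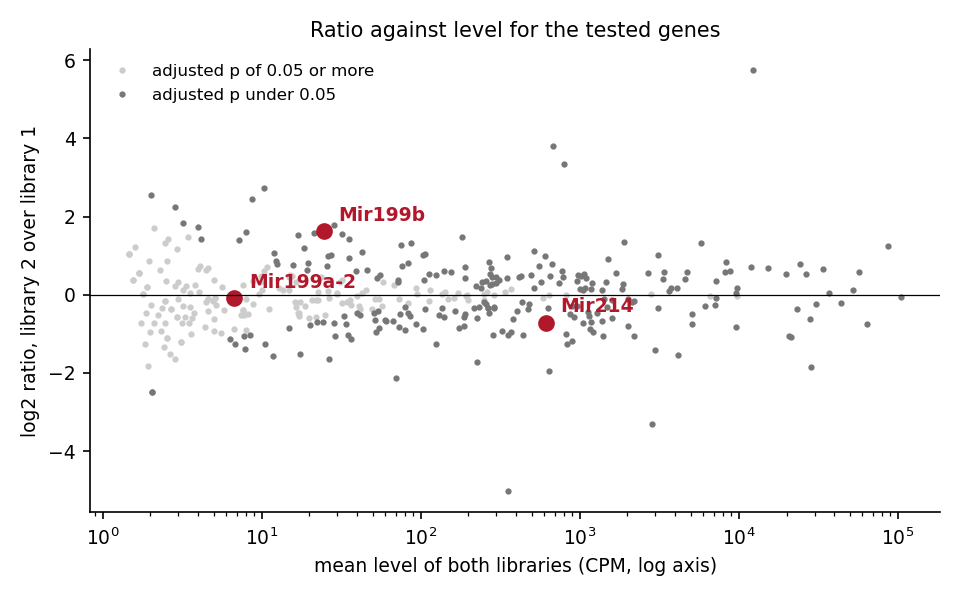
Log2 ratio of library 2 over library 1 (y axis) against mean level (x axis, CPM on a log axis) for the 411 tested genes, dark grey where the adjusted p was under 0.05. Mir199b lies at 1.63, near the upper edge of the genes at its level, Mir214 at -0.71 and Mir199a-2 at -0.09.

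Reads on the strand of the dynamin genes were nearly absent. Antisense to Mir214 there were 3 reads in library 2 and 0 in library 1, and the 3 Mir199 genes had 0 in library 2 and 0 in library 1. In the unstranded column Mir214 had 1759 reads in library 2 and 1752 in library 1, and the Mir199 genes kept their counts.

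Other miRNA genes of stromal and vascular cells were read beside the 4 genes. In the list of mural and smooth muscle genes, Mir143, which with miR-145 promotes the contractile state of smooth muscle, had 40553 CPM in library 2 and 27293 CPM in library 1. It was higher in library 2, with a log2 ratio of 0.66. Mir145a, its neighbour, had 789 CPM in library 2 and 847 CPM in library 1, with a log2 ratio of -0.02 and an adjusted p of 0.807 in the exact binomial test. The sign of Mir145a turned with the scaling, from -0.10 by library size alone (adjusted p = 0.0283) to 0.15 with no filter on low counts (adjusted p = 0.00144). Mir145b had 1 read in library 2 and 0 in library 1. Of the 2 tested genes of this list, 1 was called higher in library 2 and none in library 1. The median log2 ratio of both was 0.32, against -0.07 over all 411 tested genes. Per Mir214 read there were 90.3 Mir143 reads in library 2 and 35.0 in library 1, and 1.76 Mir145a reads in library 2 and 1.08 in library 1.

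In the list of fibroblast and extracellular matrix genes all 7 were tested, with 3 called higher in library 2 and 3 called higher in library 1. Their median log2 ratio was 0.09. Mir21a, a miRNA raised in fibrotic tissue, had 13002 CPM in library 2 and 28487 CPM in library 1, with a log2 ratio of -1.05, the same direction as Mir214. The miR-29 family represses collagen genes. Of it, Mir29a had 3665 CPM in each library, and its log2 ratio of 0.09 passed the exact binomial test (adjusted p = 4.01e-05) but was lost with scaling by library size alone, where the adjusted p was 1. Mir29c had 1115 CPM in library 2 and 826 CPM in library 1, with a log2 ratio of 0.52. Mir29b-1 had 12.3 CPM in library 2 and 40.6 CPM in library 1, with a log2 ratio of -1.63. Mir29b-2 had 15.1 CPM in library 2 and 14.7 CPM in library 1 and did not pass (log2 ratio 0.11, adjusted p = 0.833). Mir29b-1 and Mir29b-2 share an arm, so their counts are uncertain in the way of the Mir199 genes. Mir130a was higher in library 2 (log2 ratio 0.40) and Mir152 lower (log2 ratio -0.33), a call lost with no filter on low counts (adjusted p = 0.0742). The list did not move one way. The ratio of Mir214 lay within its range, and that of Mir199b lay above its highest member, Mir29c.

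Vascular and other cell markers moved between the libraries as well, and their part in the values above was not tested. The endothelial list, 4 of 4 genes with reads, summed to 122287 CPM in library 2 and 54878 CPM in library 1, nearly all of it Mir126a, and Mir222 went the other way (log2 ratio -0.84). In the unstranded column Mir126a, which Mir126b overlaps on the other strand, kept 10 reads in library 2 and 3 in library 1, and its call was lost (exact binomial test, adjusted p = 0.506). The erythroid list summed to 25715 CPM in library 2 and 680.5 CPM in library 1 over 3 annotated genes, nearly all of it Mir451a in library 2. Mir486, with 86 reads in library 2 and 107 in library 1, went the other way (log2 ratio -1.03). In the unstranded column it had 0 reads in library 2 and 0 in library 1. Its sequence was not among those matched, so copies of its arms were not checked. The hepatocyte gene Mir122 had 490.5 CPM in library 2 and 5185 CPM in library 1. The leukocyte list, 7 of 8 genes with reads, summed to 2656 CPM in library 2 and 3644 CPM in library 1, and Mir142b had none. Of its 6 tested genes 4 were called higher in library 1 and 1 higher in library 2, against 29% and 29.4% of all tested genes. The median log2 ratio of the 6 was -0.47. Mir223 was among the 4 (log2 ratio -2.12), Mir142 was the 1 higher in library 2 (log2 ratio 0.85) and Mir155 was not called (log2 ratio 0.06). The neuroendocrine and neural list, led by Mir375, summed to 44397 CPM in library 2 and 43142 CPM in library 1, with 11 of 15 genes with reads and Mir124a-1, Mir124a-2, Mir124a-3 and Mir9-2 at 0. Mir375 carried most of these sums, with 36561 CPM in library 2 and 37574 CPM in library 1. Of the 9 tested genes 8 were called higher in library 2 and 1 higher in library 1. Over all tested genes 29.4% and 29% were called in these directions. Mir375 was among the 8 with a log2 ratio of only 0.05 after scaling, although its CPM was the lower in library 2. The median log2 ratio of the 9 genes was 0.59. The epithelium and kidney list, 9 of 9 genes with reads, summed to 155 CPM in library 2 and 198 CPM in library 1. The striated muscle list summed to 3.32 CPM in library 2 and 5.79 CPM in library 1, with 6 of 9 genes at 0 in both, among them Mir1a-1, Mir1a-2 and Mir133b.

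**Figure D5:**
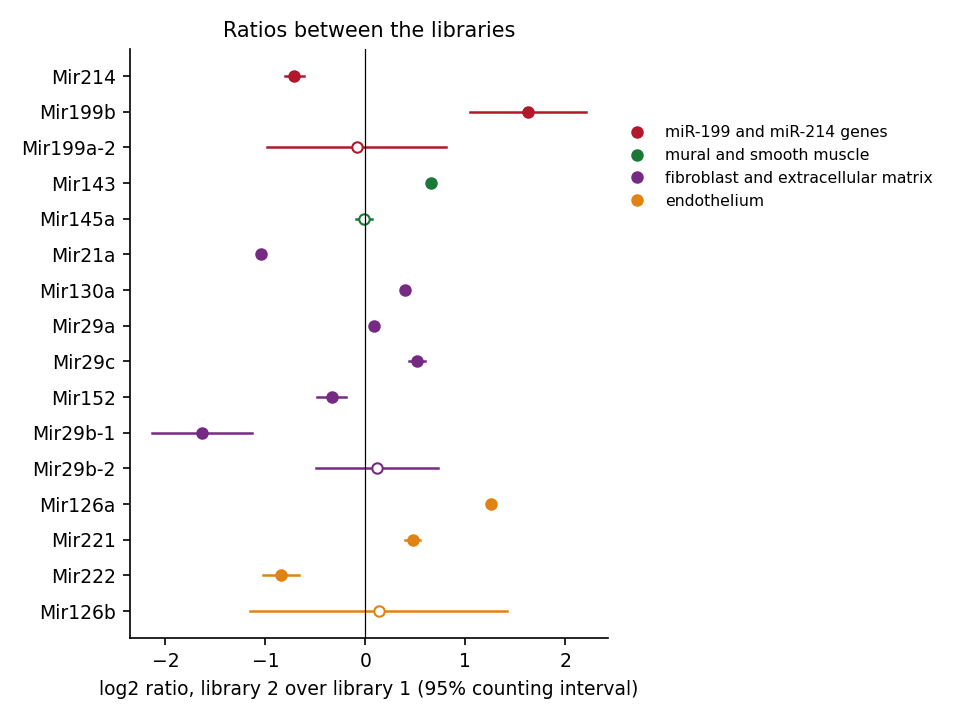
Log2 ratio of library 2 over library 1 (x axis) with 95% counting intervals for the tested genes of 4 lists, filled where the adjusted p was under 0.05. Mir214 (-0.71) and Mir199b (1.63) lie on opposite sides of 0, as do members of the fibroblast list, from Mir29b-1 (-1.63) to Mir29c (0.52), and of the endothelial list, from Mir222 (-0.84) to Mir126a (1.26).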

How the data were processed

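The authors deposited 1 table of raw read counts per library, with no normalization or pooling. Mapping was to mm10 per the labels, and per the file headers of the text deposited with each table the annotation was GENCODE M21. For the aligner, counter and trimming, tool names are not given in the sources used. Each table has 3 count columns and no header. By its layout the first is unstranded, and the stranded column with the larger sum in both libraries was taken as the gene strand. Library 2 held 11132685 reads, 3912280 of them (35.1%) on the strand of miRNA genes, and library 1 held 7938596 reads, 2244073 of them (28.3%). Reads in rows that name no gene, 64.9% in library 2 and 71.7% in library 1, were left out of library sizes. The animals carry CAST variants, which can lower mapping to the reference in both libraries.

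With 1 group a quasi-likelihood test has no coefficient. Genes with a sum of at least 10 reads therefore underwent an exact binomial test (two-sided) with edgeR 4.0.16 TMM effective library sizes. Its check on simulated counts held counting error alone, which the test itself assumes. That check does not cover spread between libraries beyond counting error. The threshold was an adjusted p of 0.05. Log2 ratios have 0.5 read added to each count and 95% intervals. DESeq2 1.42.0 size factors, scaling by library size alone, other filters and the unstranded column were the alternatives. Python 3.11.15, scipy 1.17.1 and R 4.3.3 were used. Sequences come from RefSeq (GRCm38.p6) and GENCODE M21 transcripts. The genes, the gene lists and the tests were chosen with earlier results of these data known. Named are the 4 genes, list genes and the 2 detected genes directly above and below each by mean CPM.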

Additional observations from a re-analysis of the deposited data

How the results depend on the processing

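Mir214 was lower and Mir199b higher in library 2 under each alternative run, 6 for Mir214 and 4 for Mir199b. Their log2 ratios ranged from -0.80 to -0.55 for Mir214 (exact binomial test, adjusted p from 8.83e-59 to 3.9e-28) and from 1.54 to 1.79 for Mir199b (adjusted p from 4.87e-11 to 2.1e-08). With at least 100 reads required per library, neither Mir199b nor Mir199a-2 could be tested. The alternative with unique-arm genes only, chosen after seeing the data, holds neither of them by construction. Mir199a-2 never passed (adjusted p from 0.831 to 1), and with no filter on low counts its log2 ratio was 0.078, a reversed sign. The lack of a filter shifted all log2 ratios by 0.17, and the share of 1.5-fold calls that were higher in library 2 was 66.4%, against 48.1% with TMM and the filter and 38.5% by library size alone. Genes called with 1.5-fold numbered 129, and 82 when each library had to hold at least 100 reads, where 223 genes were tested in place of 411. With all reads of a library as the denominator, the mean was 189 CPM for Mir214, 8.23 CPM for Mir199b, 2.13 CPM for Mir199a-2 and 0.0449 CPM for Mir199a-1. In the unstranded column, with fewer miRNA reads in the denominator, it was 8.18 CPM for Mir199a-2. Leaving out 1 replicate gave 449 to 781 CPM for Mir214, 12.5 to 36.8 for Mir199b, 6.39 to 7.13 for Mir199a-2 and 0 to 0.256 for Mir199a-1. No paired analysis was possible because the labels give a single group.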
